A study of Homo sapiens with 6 samples.

Results

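The genes described here are those of the cornified envelope, the S100 family and the tissue kallikreins, measured in CaSki cells with and without recombinant TGF-β1. Members were taken by gene symbol: all symbols that begin with S100, SPRR, LCE or KLK and a number, the transglutaminases TGM1 to TGM7, and IVL, FLG, CRNN, EVPL, PPL and SPINK5. On the array 92 probe sets carried 1 such symbol. They covered 58 genes of the 19775 genes measured, and where a gene had several, the one with the highest mean value was used. The 58 were 5 envelope precursor and scaffold genes, 7 transglutaminases, 21 S100 symbols, 7 SPRR genes, 4 LCE genes and 14 kallikreins. SPINK5, which encodes the kallikrein inhibitor LEKTI, and 21 other protein-coding genes with such symbols were not analysed here.

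CaSki is an established line from a human cervical squamous cell carcinoma that carries integrated papillomavirus DNA. The treated group had recombinant TGF-β1 at 2 ng/mL and the control group had medium without it, with 3 arrays each, and the cells of both groups were otherwise grown alike per the labels. The labels give neither the duration of treatment nor whether the 3 samples of a group were separate cultures, so the p-values cover only the spread among these samples, part or all of which may be technical. CaSki stands here for a tumour line and not for normal squamous epithelium.

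The cornified envelope is the protein shell that squamous cells lay down beneath their membrane late in differentiation. Involucrin, envoplakin and periplakin form its first scaffold, small proline-rich (SPRR) and late cornified envelope (LCE) proteins thicken it, and transglutaminases crosslink these proteins. S100 proteins are small calcium-binding proteins, several of which are made in the same cells and are released as alarm signals. Kallikreins are secreted serine proteases, some of which cut the junctions between cells at the surface so that they can be shed. Most S100 genes lie with the SPRR, LCE, IVL, FLG and CRNN genes in the epidermal differentiation complex of chromosome 1, and the kallikreins form a cluster on chromosome 19.

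The promoters of 4 genes that differed between the groups are shown because they are the members with the most clearly separated values and a single promoter in the RefSeq table (GRCh38.p14). Each line gives the 250 bases before the annotated start, 5′ to 3′ on the strand of the gene, with matches to TATAAA and to TGANTCA, the core bound by AP-1 factors, in capitals. IVL lies at chr1:152908296-152908545 on the plus strand, FLG at chr1:152325240-152325489 on the minus strand, S100A9 at chr1:153357604-153357853 on the plus strand and S100A11 at chr1:152037005-152037254 on the minus strand.
IVL: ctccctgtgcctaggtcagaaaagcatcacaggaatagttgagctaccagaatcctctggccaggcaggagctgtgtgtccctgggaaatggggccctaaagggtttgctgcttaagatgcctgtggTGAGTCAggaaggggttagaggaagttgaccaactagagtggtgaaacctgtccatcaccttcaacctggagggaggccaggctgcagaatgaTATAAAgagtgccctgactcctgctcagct
FLG: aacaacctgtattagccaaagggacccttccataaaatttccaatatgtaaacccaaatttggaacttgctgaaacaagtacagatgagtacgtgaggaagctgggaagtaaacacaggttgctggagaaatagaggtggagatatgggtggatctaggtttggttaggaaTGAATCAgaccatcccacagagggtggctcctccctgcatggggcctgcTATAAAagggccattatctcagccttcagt
S100A9: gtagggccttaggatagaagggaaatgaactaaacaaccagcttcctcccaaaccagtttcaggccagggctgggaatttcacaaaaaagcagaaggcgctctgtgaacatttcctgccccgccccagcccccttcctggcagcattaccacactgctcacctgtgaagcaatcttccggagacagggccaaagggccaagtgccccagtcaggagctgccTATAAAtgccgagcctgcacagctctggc
S100A11: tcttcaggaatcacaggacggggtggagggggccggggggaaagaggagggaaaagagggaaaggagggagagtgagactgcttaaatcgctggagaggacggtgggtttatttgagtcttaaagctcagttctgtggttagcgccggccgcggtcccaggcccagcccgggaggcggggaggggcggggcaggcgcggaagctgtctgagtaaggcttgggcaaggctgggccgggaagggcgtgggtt
In IVL the TGANTCA match began 123 bases and the TATAAA match 30 bases before the start. FLG held the same pair of motifs, at 79 and 30 bases. S100A9 held TATAAA at 29 bases and no TGANTCA in this window, and S100A11 held neither. Both strands were searched and no matches overlapped. Promoters were found for 48 of the 58 genes, 66 in all, and TGANTCA was in 12 of them (18.2%), against 6.57% of all 35116 promoters. TATAAA was in 25 of the 66 (37.9%), against 10.7% of all. The palindrome GTCTAGAC, a SMAD-binding sequence, was in 0 of the 66 and in 0.182% of all. It is so rare that 0 in 66 promoters does not set the members apart. Such matches describe letters and not binding. IVL and FLG, which share both motifs, differed between the groups in opposite directions, as follows.

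Of the 58 genes 3 rose (IVL, S100A11 and TGM2) and 3 fell (S100A9, FLG and KLK10) with TGF-β1. The values are log2 expression estimates made by the authors with RMA, and changes were called where limma's p, adjusted by Benjamini-Hochberg over all 19775 genes, was below 0.05. After repeated quantile normalisation or median centring 4 members rose and 2 fell, with KLK10 lost (adjusted p = 0.0523 and 0.0517) and the kallikrein gene KLK11 gained (adjusted p = 0.0493 and 0.0485). The 6 called members are 10.3%, against 8.5% of all genes. Rises were 5.17% of the members against 4.03% of all genes, and falls were 5.17% against 4.47%, so these shares were near the background. The median difference, treated minus untreated, was 0.05 over the members and -0.00271 over all genes. Treated and untreated values did not overlap for 16 of the 58 members (27.6%), against 29.2% of all genes. An unadjusted p under 0.05 was reached by 17 of the 58 (29.3%), against 23.2% of all genes.

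**Figure D1:**
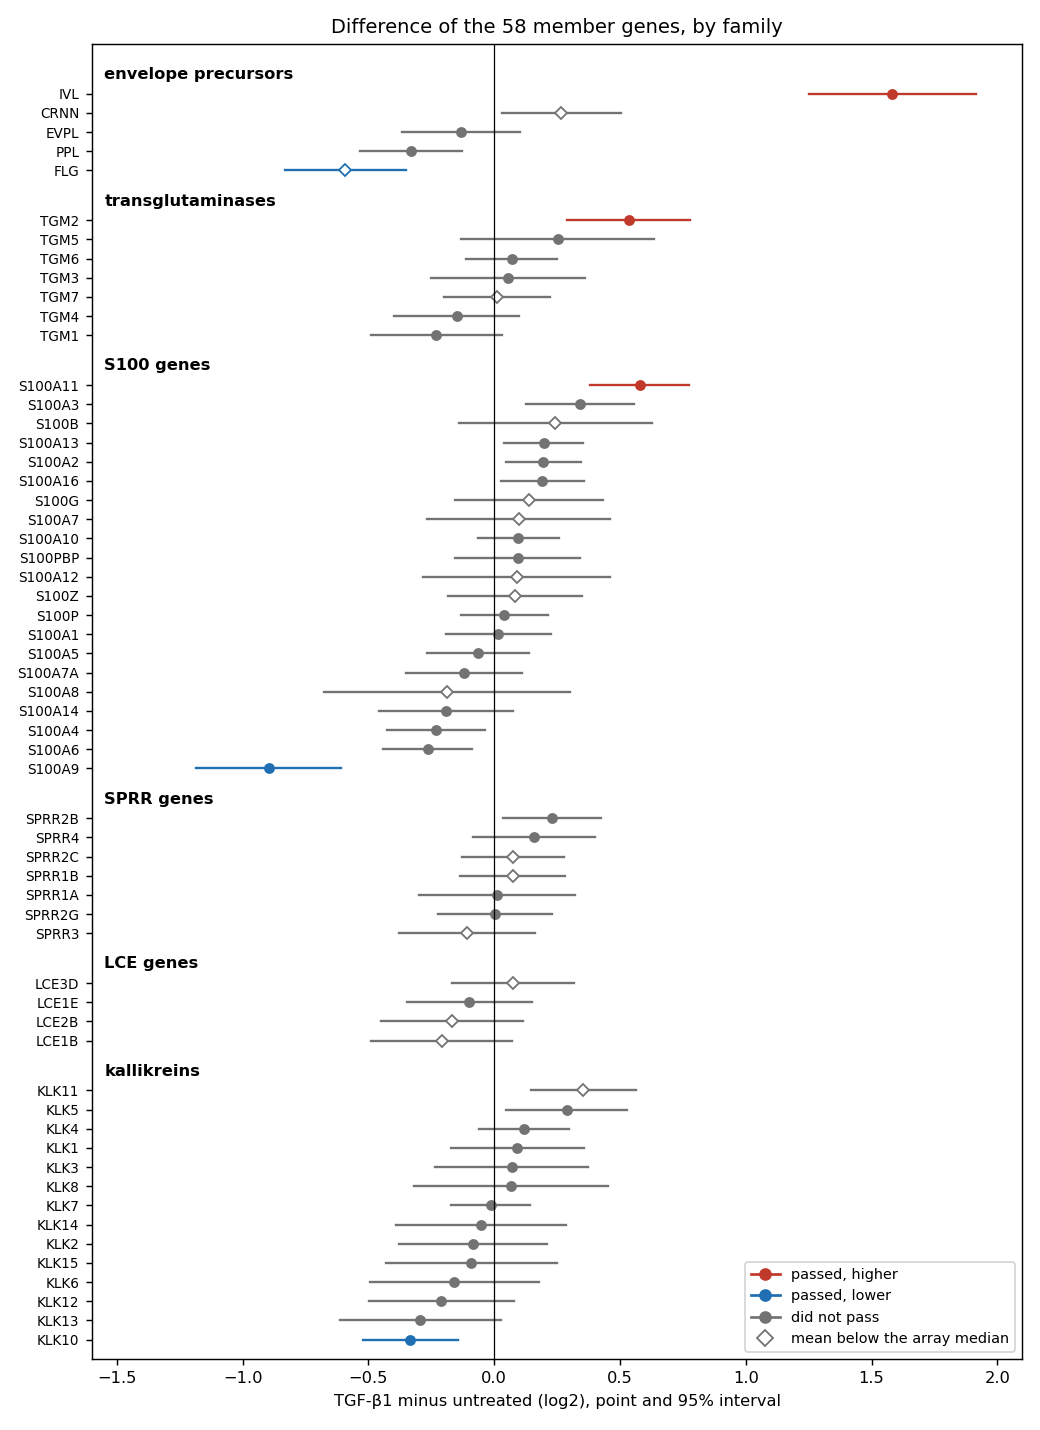
Difference between TGF-β1-treated and untreated CaSki cells for the 58 genes, grouped by family; the x axis is the log2 difference, points are estimates and lines are 95% intervals from limma. IVL stands furthest to the right at 1.58 and S100A9 furthest to the left at -0.90, and 52 genes in grey did not pass; open diamonds mark genes whose mean lay below the median of all probe sets.

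Several properties of the arrays bear on these values. The median over all probe sets was 4.16, and 42 of the 58 members lay above it. RMA gives no detection call and compresses differences of dim probe sets, so the other 16 are read with caution. Pairs of arrays within a group had correlations of 0.994 to 0.996. A sign of RNA quality, the log2 ratio of 3′ to 5′ signal of the ACTB and GAPDH controls, was highest on the arrays numbered 1, at 1.15 in the treated and 1.19 in the untreated group, against 0.69 to 0.86 on the other 4. With this signal as a covariate, 6 of the 6 called members still passed (adjusted p up to 0.0414), and KLK11 and PPL passed as well (adjusted p = 0.0394 and 0.0367), for 4 rises and 4 falls. All 6 measured squamous epithelial markers (KRT5, KRT14, DSC3, DSG3, PKP1 and SFN) lay above the array median. One of them, the basal keratin gene KRT14, read 7.86, 8.06 and 8.14 with TGF-β1, against 7.24, 7.15 and 7.36 untreated, and rose 1.71-fold (0.77 ± 0.10, SE, limma adjusted p = 0.0027). The other 5 did not pass. KRT5, DSG3, PKP1 and SFN differed by 0.20, 0.01, 0.22 and 0.02, and DSC3 by -0.25 without overlap (limma adjusted p = 0.163). Of the 9 listed markers 3 (KRT17, KRT6A and TP63) were not analysed. The part of the KRT14 rise in the results below was not tested.

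Involucrin showed the largest difference of the members. IVL, which encodes this first envelope scaffold protein and transglutaminase substrate, had log2 values of 7.12, 7.47 and 7.62 on the TGF-β1 arrays, against 5.90, 5.61 and 5.96 on the untreated arrays. The groups were separated by 1.16 between the lowest treated and the highest untreated value. It rose 2.996-fold (1.58 ± 0.14, SE, 95% interval 1.25 to 1.92, limma adjusted p = 5.7e-04). The rise passed without each array in turn and without both arrays numbered 1.

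None of the other 4 envelope genes rose. FLG, which encodes filaggrin, the keratin-bundling protein of the granular layer, read 2.79, 2.87 and 2.90 with TGF-β1, against 3.64, 3.46 and 3.25 untreated. All 6 values lay below the array median, and the groups did not overlap. FLG fell 1.51-fold (-0.59 ± 0.10, SE, limma adjusted p = 0.0130), but it no longer passed when untreated array 2 (adjusted p = 0.0520) or both arrays numbered 1 (adjusted p = 0.0831) were left out. PPL, which encodes periplakin, read 6.90, 7.07 and 6.88 with TGF-β1 and 7.16, 7.34 and 7.34 untreated. These values did not overlap either, but the difference of -0.33 ± 0.09 (SE) did not pass (limma adjusted p = 0.0583). It passed with the 3′ to 5′ covariate and with genes below the median or the lower quartile left out (adjusted p = 0.0297 and 0.0476). It did not pass after repeated quantile normalisation or median centring (adjusted p = 0.0660 and 0.0651). With 1 array left out PPL passed in 0 of the 6 fits (adjusted p from 0.0658 to 0.181). EVPL, which encodes its partner envoplakin, read 4.30, 4.35 and 4.42 with TGF-β1 and 4.32, 4.69 and 4.46 untreated, overlapping, with a 95% interval of the difference from -0.37 to 0.10. CRNN, which encodes cornulin, a squamous protein of the fused S100 type, differed by 0.27 without passing (adjusted p = 0.168) at a mean of 3.22, below the array median. Whether these differences differed from that of IVL was not tested.

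**Figure D2:**
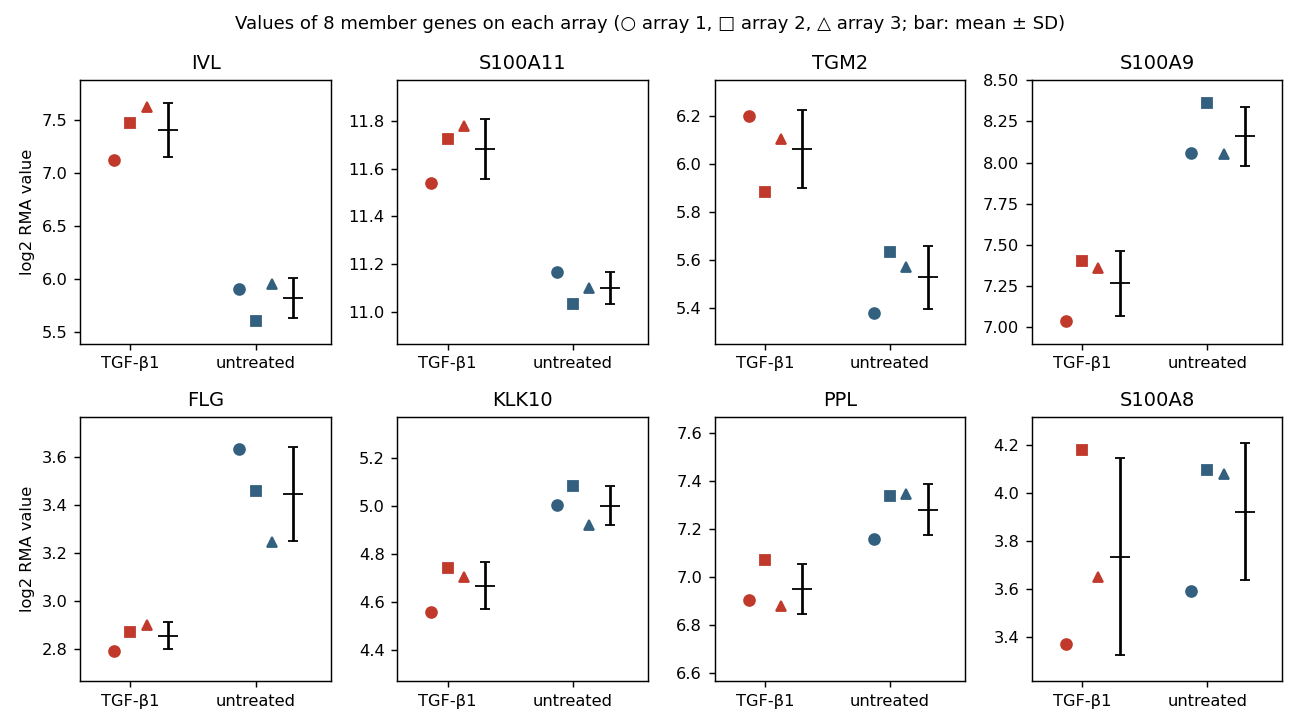
Log2 RMA values of 8 genes on each array, TGF-β1 (red) at the left and untreated (blue) at the right of each panel, with the mean and SD (n = 3 each) as black bars; panels have their own y axes. IVL, S100A11 and TGM2 sit higher and S100A9, FLG, KLK10 and PPL lower on all 3 treated arrays, while the values of S100A8 overlap.

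Of the 7 transglutaminases only TGM2 passed in this fit. TGM2 encodes the widely expressed tissue transglutaminase, which crosslinks matrix and intracellular proteins. It read 6.20, 5.88 and 6.11 with TGF-β1, against 5.38, 5.63 and 5.57 untreated, with no overlap. It rose 1.45-fold (0.54 ± 0.11, SE, limma adjusted p = 0.0209). Leaving out array 1 or array 3 of either group ended this call (adjusted p up to 0.0705), as did leaving out both arrays numbered 1 (adjusted p = 0.119). Its 3 dimmer probe sets differed by 0.21, -0.14 and 0.05 and did not pass, and with the mean of all 4 the adjusted p was 0.256.

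TGM1, the keratinocyte enzyme of envelope crosslinking, read 4.41, 4.37 and 4.68 with TGF-β1 and 4.68, 4.89 and 4.59 untreated. These values overlapped, and the difference of -0.23 (95% interval -0.49 to 0.03) did not pass. TGM3 and TGM5, which also act in the epidermis, differed by 0.06 and 0.25 without passing. For TGM4, TGM6 and TGM7 the differences were -0.15, 0.07 and 0.01.

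Among the 21 S100 symbols S100A9 fell and S100A11 rose. S100A9, a subunit of the alarm protein calprotectin, read 7.04, 7.40 and 7.36 with TGF-β1, against 8.06, 8.36 and 8.05 untreated. Its groups were 0.66 apart at their nearest values. It fell 1.86-fold (-0.90 ± 0.13, SE, 95% interval -1.18 to -0.61, limma adjusted p = 0.0045) and passed without each array in turn and without both arrays numbered 1. Its partner subunit S100A8 read 3.37, 4.18 and 3.65 with TGF-β1 and 3.59, 4.09 and 4.08 untreated. These values overlapped, lay around or below the array median and had a wide interval of the difference, -0.68 to 0.30.

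Myeloid cells are the main source of calprotectin in tissue, and their markers were read beside S100A9. Of 8 measured myeloid and granulocyte markers 0 passed by limma, with 2 at an unadjusted p under 0.05. Below the array median lay 5, among them PTPRC, the pan-leukocyte gene, at a mean of 2.66 and LYZ, which encodes lysozyme, at 2.31. The 3 above it were CSF1R, CSF3R and ITGAM, with differences of 0.36, 0.13 and 0.07. CSF1R was higher with TGF-β1 without overlap but did not pass (limma adjusted p = 0.106). Of the 8 markers 4 had differences below 0. The summed linear signal of the 8 ran from 152 to 166 with TGF-β1 and from 133 to 153 untreated. Its part in the S100A9 result was not tested. Of 4 melanocyte and 3 Langerhans cell markers 0 passed by limma, with 1 of each at an unadjusted p under 0.05. An unadjusted p under 0.05 was reached by 23.2% of all genes. Over the 8 myeloid markers the differences ran from -0.19 to 0.36.

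S100A11, which regulates growth of keratinocytes and binds annexins, read 11.54, 11.72 and 11.78 with TGF-β1, against 11.17, 11.035 and 11.10 untreated. No values overlapped. It rose 1.49-fold (0.58 ± 0.09, SE, limma adjusted p = 0.0060), and the call held without each array in turn and without both arrays numbered 1. Leaving its call aside, 5 other S100 genes had means above 9: S100A10, S100A2, S100A6, S100A13 and S100A16. Their replicates lay close together, and their differences were small.

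S100A2, a nuclear S100 protein of basal squamous cells, read 13.33, 13.37 and 13.34 with TGF-β1 and 13.16, 13.17 and 13.13 untreated, a difference of 0.20 (adjusted p = 0.113). S100A13, which takes part in the release of growth factors that lack a signal peptide, differed by 0.20 (adjusted p = 0.127), and S100A16 by 0.19 (adjusted p = 0.156). S100A6, which encodes calcyclin, read 9.87, 9.98 and 10.08 with TGF-β1 and 10.26, 10.24 and 10.23 untreated, a difference of -0.26 (adjusted p = 0.0767). For these 4 genes the groups did not overlap although none passed. Over all genes 29.2% did not overlap, so this is not read as a result about the bright S100 genes. S100A10, the annexin A2 partner p11, read 13.58, 13.65 and 13.67 with TGF-β1 and 13.49, 13.52 and 13.59 untreated, overlapping, with a 95% interval from -0.06 to 0.26. With limma's trended and robust variance, 2 options changed together, 7 members rose and 4 fell. Under that setting S100A2, S100A3, S100A13 and S100A16 joined the rises and S100A6 and PPL joined the falls, while KLK10 did not pass.

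S100A3, known from the hair cuticle, read 6.18, 6.36 and 6.40 with TGF-β1 and 6.08, 5.83 and 6.00 untreated, a difference of 0.34 without overlap that did not pass (adjusted p = 0.0636). S100A4, a gene linked to cell motility, differed by -0.23 (adjusted p = 0.144), also without overlap. The remaining 10 S100 genes and S100PBP, which encodes a binding protein of S100P and is a member by its symbol alone, had differences between -0.19 and 0.24. S100A7, which encodes psoriasin, S100A12, S100B, S100G and S100Z lay below the array median.

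No SPRR or LCE gene passed in this limma fit. Of these 11 genes 1 had an unadjusted p under 0.05, against 23.2% of all genes. That gene was SPRR2B, which read 4.42, 4.55 and 4.30 with TGF-β1 and 4.15, 4.17 and 4.27 untreated, a difference of 0.23 (adjusted p = 0.152). Over the 11 genes the differences ran from -0.21 to 0.23, with 95% intervals between -0.49 and 0.43. SPRR4, SPRR2G and SPRR1A had differences of 0.16, 0.00374 and 0.01, and LCE1E, LCE3D and LCE2B of -0.10, 0.08 and -0.17. Of the 11 genes 6 lay below the array median, where RMA compresses differences. The SPRR2C symbol belongs to a pseudogene in RefSeq, and SPRR genes are close copies of each other, so their probe sets may share signal.

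Among the 14 kallikreins KLK10 fell and none rose past the threshold. KLK10, which encodes a secreted protease that is often silenced in tumours, read 4.56, 4.74 and 4.71 with TGF-β1, against 5.003, 5.08 and 4.92 untreated, with no overlap. It fell 1.26-fold (-0.33 ± 0.08, SE, limma adjusted p = 0.0442). In none of the 6 fits that left out 1 array did KLK10 pass (adjusted p from 0.0790 to 0.148), and its other probe set, at a mean of 2.79, differed by 0.01. KLK11, its neighbour on chromosome 19, read 3.51, 3.22 and 3.36 with TGF-β1 and 2.98, 3.08 and 2.96 untreated, all below the array median, and its difference of 0.35 did not pass (adjusted p = 0.0505). Its limma adjusted p lay close to the threshold. With all 6 arrays it fell below under both other normalisations and the 3′ to 5′ covariate, as above. It also did so with genes under the lower quartile left out (0.0413) and with probe sets averaged (0.0432). It stayed above with the trended robust variance (0.0650), weighted arrays (0.0614), the replicate number as a block (0.0897) and single probe sets (0.0991). With 1 array left out KLK11 passed only without TGF-β1 array 2 (0.0486) and failed in the other 5 fits (up to 0.158). It also failed without both arrays numbered 1 (0.194).

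KLK5 and KLK7, proteases of surface shedding in skin, did not pass. KLK5 read 5.88, 6.05 and 6.16 with TGF-β1 and 5.58, 5.77 and 5.88 untreated, a difference of 0.29 with groups that only just failed to overlap (adjusted p = 0.143). KLK7 read 4.28, 4.25 and 4.35 with TGF-β1 and 4.28, 4.31 and 4.34 untreated, with a 95% interval from -0.17 to 0.14. KLK3, which encodes prostate-specific antigen, and KLK4 differed by 0.07 and 0.12 without passing. Over the 13 kallikreins that did not pass the differences ran from -0.29 to 0.35, and 8 of the 14 kallikreins had differences below 0.

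**Figure D3:**
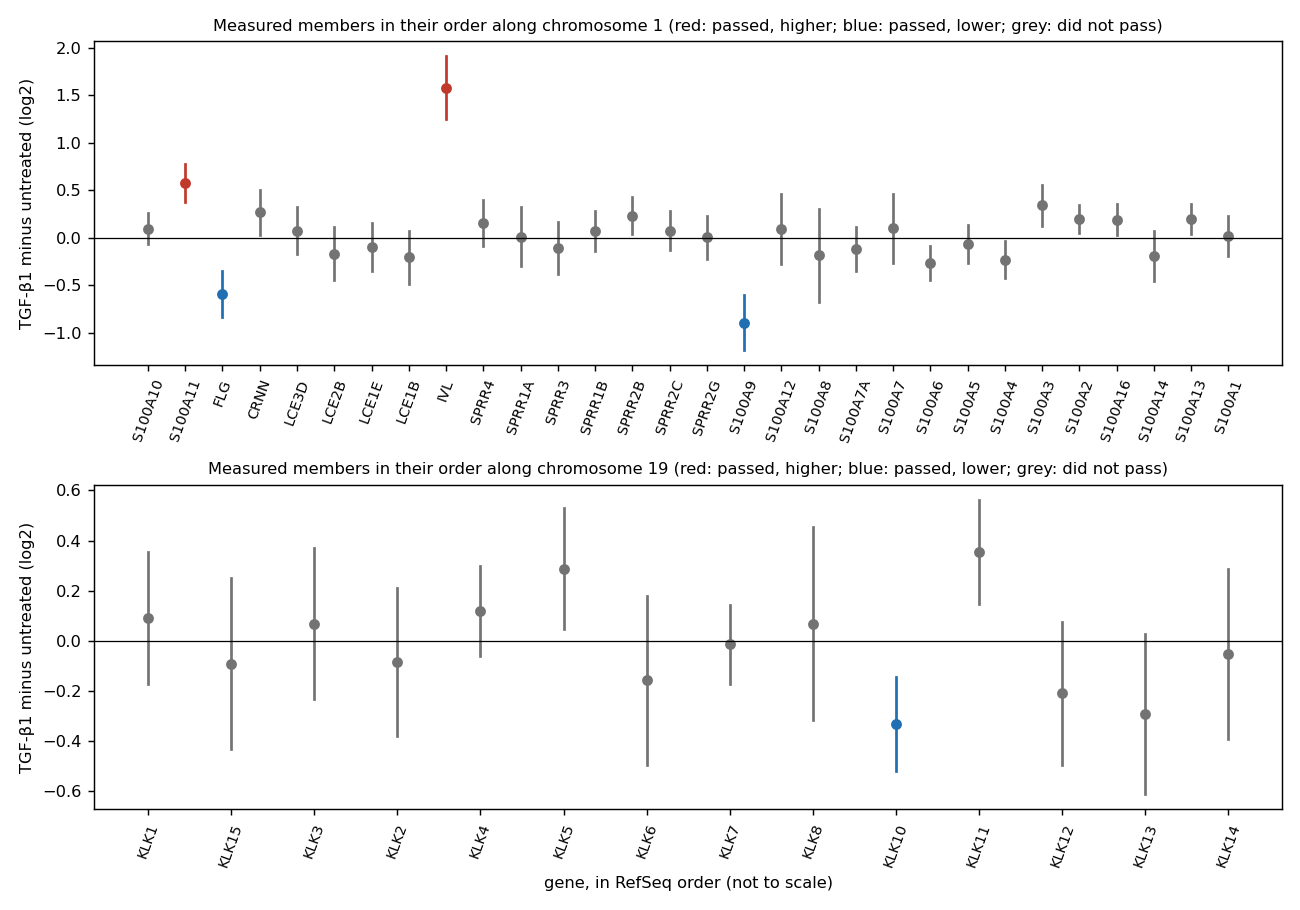
Log2 difference with 95% interval for the 30 members of the chromosome 1 complex (upper panel) and the 14 kallikreins of chromosome 19 (lower panel), in RefSeq gene order and not to scale. The 4 called genes of chromosome 1, S100A11, FLG, IVL and S100A9, are separated by grey genes that did not pass, except S100A11 and FLG, which are adjacent among the measured members and differ in sign.

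In both clusters the called genes were set among genes that did not pass. Over all genes only 8.5% were called, so this arrangement is not read as a result about the clusters. Neighbours here are neighbours among the measured members only, and other genes may lie between them. IVL stood between LCE1B, with a difference of -0.21, and SPRR4, with 0.16, neither of which passed. S100A9 stood between SPRR2G, with 0.00374, and S100A12, with 0.09. S100A11 stood beside S100A10, with 0.10, and FLG, which fell. KLK10 and KLK11, next to each other on chromosome 19, had differences of opposite sign.

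Where a gene had several probe sets, they often disagreed. Of the 58 genes 21 had more than 1 probe set, and for 14 of the 21 the differences had both signs. None of the 34 dimmer probe sets passed when probe sets were tested singly by limma over 54613 probe sets (lowest adjusted p = 0.147, 5 with an unadjusted p under 0.05), and 10 of the 34 lay above the array median. S100A13 differed by 0.20 on its bright and by -0.27 on its dim probe set. For S100A6 both probe sets had differences below 0, at -0.26 and -0.22, and for S100A10 both were above 0, at 0.10 and 0.12. IVL, S100A9, S100A11 and FLG had 1 probe set each, so no second one could be set beside them. In the test of single probe sets 5 of the 6 called members still passed, and KLK10 did not (adjusted p = 0.0935).

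**Figure D4:**
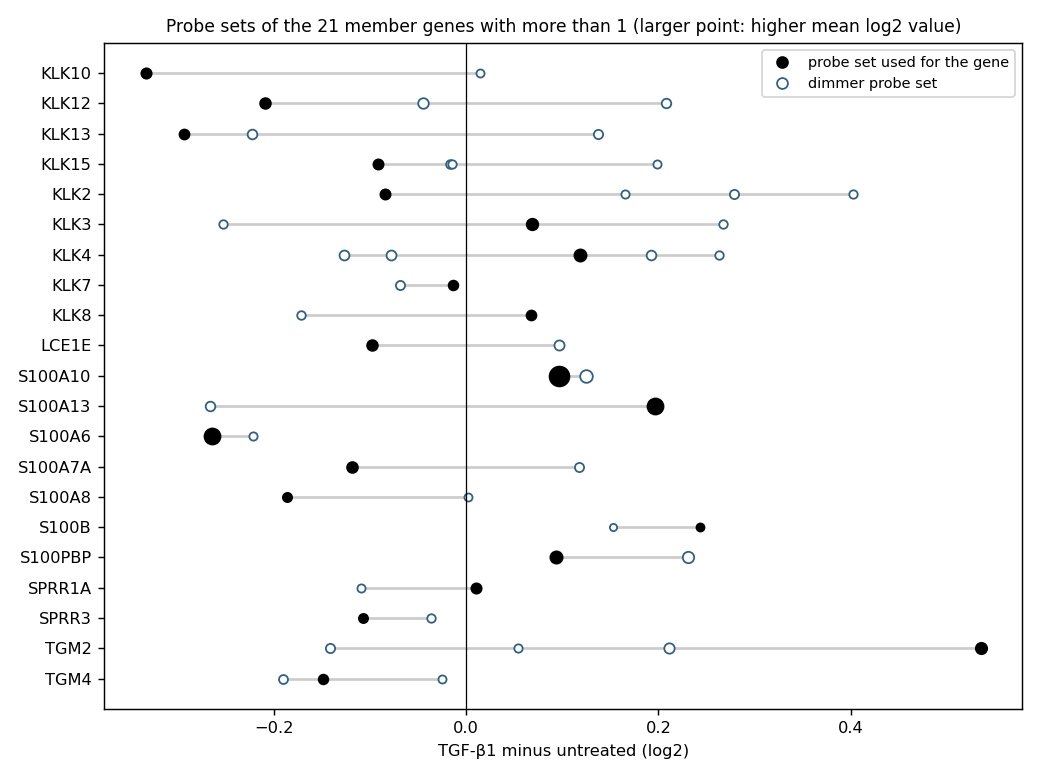
Log2 difference of each probe set of the 21 genes with more than 1, filled for the probe set used and open for dimmer ones; larger points have higher mean values. TGM2 spans -0.14 to 0.54 and S100A13 lies on both sides of 0, while the points of S100A10 and S100A6 lie close together.

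Genes that work with the envelope were measured beside the members. Of 20 measured envelope and barrier partners 1 rose and 1 fell, with a median difference of 0.04. Over all genes 4.03% rose and 4.47% fell, so counts this small are not read as a result about the partners. CDSN, which encodes corneodesmosin, an adhesion protein cut by KLK5 and KLK7, read 5.89, 5.80 and 5.95 with TGF-β1, against 5.04, 4.80 and 5.28 untreated. It rose 1.79-fold (0.84 ± 0.12, SE, limma adjusted p = 0.0050), and its second probe set differed by 1.13 (adjusted p = 0.0020 over all probe sets). The CDSN call held without each array in turn and was lost without both arrays numbered 1 (adjusted p = 0.0763). CSTA, which encodes the cysteine protease inhibitor cystatin A, itself crosslinked into the envelope, read 8.64, 8.44 and 8.43 with TGF-β1 and 8.91, 8.86 and 8.84 untreated. It fell 1.29-fold (-0.37 ± 0.08, SE, limma adjusted p = 0.0298), and it passed in 1 of the 6 fits that left out 1 array (adjusted p up to 0.0980). LORICRIN, the main envelope protein of epidermis, differed by 0.03 at a mean of 3.53, below the array median.

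Of 13 measured genes from a list around kallikreins and related proteases 1 rose and none fell, with a median of -0.000877. Those 13 were mainly inhibitors and activators, and the listed receptor gene F2RL1 was not analysed. Over all genes 4.03% rose and 4.47% fell. CST6, which encodes cystatin M/E, a secreted inhibitor of cysteine proteases rather than of kallikreins, which are serine proteases, read 12.81, 12.90 and 12.96 with TGF-β1, against 12.13, 12.13 and 12.20 untreated. It rose 1.67-fold (0.74 ± 0.07, SE, limma adjusted p = 8.7e-04) and passed without each array in turn, and its second probe set differed by 1.35. ST14, which encodes the kallikrein-activating protease matriptase, and SPINT1, its inhibitor, differed by -0.23 and 0.28 without passing (adjusted p = 0.107 and 0.141).

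Of 13 S100 partners and receptors 2 rose and none fell, with a median of -0.04. Rises were 4.03% and falls 4.47% of all genes, so these counts are not read as a result about the list. MYH9, a non-muscle myosin heavy chain bound by S100A4, read 9.42, 9.47 and 9.497 with TGF-β1, against 8.90, 8.83 and 8.83 untreated, and rose 1.52-fold (limma adjusted p = 0.0015). ANXA6, a calcium-dependent membrane-binding annexin, rose 1.77-fold (limma adjusted p = 0.0055), while its dim second probe set differed by 0.22 without passing. ANXA2, the partner of S100A10, and the S100 receptor gene AGER differed by 0.09 and -0.23 without passing, and TLR4, another receptor for calprotectin, by -0.05 at a mean of 3.96, below the array median.

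**Figure D5:**
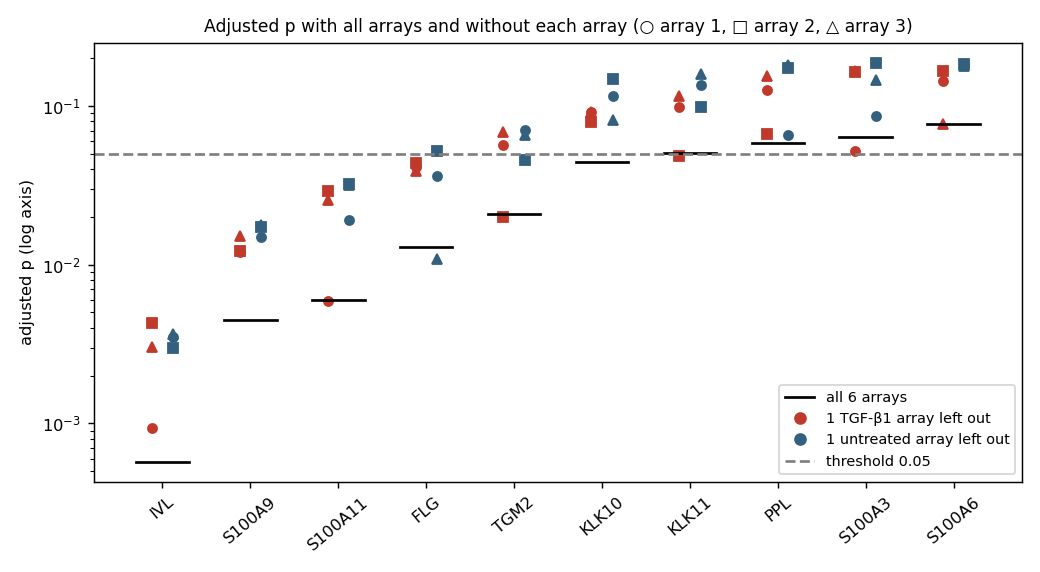
Adjusted p (log axis) of 10 members with all 6 arrays (black lines) and without each TGF-β1 (red) or untreated (blue) array; the dashed line is the threshold of 0.05. IVL, S100A9 and S100A11 stay below the line in all 6 fits, whereas KLK10 lies above it in all 6.

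Single arrays decided part of the calls. With 1 array left out, 3 of the 6 called members passed in every such fit: IVL, S100A9 and S100A11. FLG passed in 5 of the 6 fits, TGM2 in 2 and KLK10 in 0. The difference of IVL ran from 1.47 to 1.73 over these fits, that of S100A9 from -0.96 to -0.78 and that of S100A11 from 0.53 to 0.65. Fits with fewer arrays have less power, so a lost call can come from this as well as from the array.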

How the data were processed

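Expression was measured on 6 Affymetrix arrays with 54675 probe sets, 3 from TGF-β1-treated and 3 from untreated CaSki cells. The deposited values are on a log2 scale, as inferred from their range of 1.57 to 14.5, and the authors used RMA in Affymetrix Expression Console (background correction, quantile normalisation, probe summary), per the submitters' processing notes, with no version given in the sources used here. The number of arrays, not a read depth, limits the precision.

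Probe sets were named from the platform annotation: 41091 had 1 symbol, 1801 several, 11721 none, and 62 were controls. RefSeq (GRCh38.p14) was used for names, gene order and promoters. The comparison used lmFit and eBayes of limma 3.58.1 (R 4.3.3) with no filter or covariate, adjusted by Benjamini-Hochberg over 19775 genes. On simulated data made for this comparison with these 19775 genes the fit recovered 56% of genes changed 1.5-fold and 88% of those changed 2-fold, and 5.26% of calls were false. The simulation changed 100 genes by each fold and drew independent noise for each array. In the data 1680 genes were called and arrays may share deviations, so these rates may not carry over.

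The members, lists, motifs and tests were chosen with earlier results of these data known. Named genes were the markers IVL, S100A9, FLG and KLK10, S100A8, members called or with an unadjusted p under 0.05, the 3 members of each family with the highest mean, and called list genes. KLK7, TGM1, TGM4, TGM6, TGM7, LORICRIN, ANXA2, AGER, TLR4, ST14, SPINT1, PTPRC and LYZ were named after their values were seen. So were CSF1R, CSF3R, ITGAM, the squamous markers other than KRT14, the gene neighbours, and members named only as dim or by differing probe sets. Alternatives were other normalisations, filters, probe set choices, variance models, a 3′ to 5′ covariate, a replicate block and the removal of arrays.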

Additional observations from a re-analysis of the deposited data

How the results depend on the processing

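With single arrays left out, 2 to 5 members rose, 1 to 2 fell, and 768 to 1326 of all genes were called. The largest count of rises, 5, came without TGF-β1 array 2, and the lowest count of falls, 1, without untreated array 2. Without both arrays numbered 1, 2 members rose and 1 fell, with 627 genes called. Against a minimum fold of 1.2 (treat), 1 member rose (IVL) and 1 fell (S100A9), with 327 genes called. With a trended robust variance 7 rose and 4 fell, with 2629 genes called. Repeated quantile normalisation and median centring each gave 4 rises and 2 falls. Filters at the median and at the lower quartile each gave 4 rises and 4 falls, as did the 3′ to 5′ covariate, and array weights gave 4 and 3. Leaving out probe sets with a shared-sequence suffix gave 995 called genes, and there KLK10 turned to 0.0148 (log2) and S100A8 to 0.00231, both without passing. With all probe sets of each gene averaged, 3 members rose and 2 fell, and S100A13 turned to -0.0350. In the paired fit, with the replicate number as a block, 2 members rose and 2 fell among 1280 called genes; TGM2 and KLK10 were lost (adjusted p = 0.0616 and 0.0650). Same-numbered arrays correlated at 0.20, 0.06 and 0.09 in their deviations from the group means, and 5 of 6 arrays correlated best with their own number, so the samples share a number that was not taken as a pairing. IVL and S100A9 passed under each alternative run, and S100A11 under each but the minimum fold (adjusted p = 0.133). The cause of a changed call was not tested. Dim probe sets, 16 of the 58 members, limit what can be said of FLG, KLK11, S100A8 and most LCE genes.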

Other observations

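The probe set annotated to both KLK8 and KLK9 entered no comparison above because it carries 2 symbols. It read 4.74, 4.37 and 4.21 with TGF-β1 and 4.76, 4.64 and 4.74 untreated, a difference of -0.27 ± 0.13 (SE) that did not pass in the limma fit of single probe sets (adjusted p = 0.353).

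The brightest KLK2 probe set differed by -0.08, while the 3 dimmer ones differed by 0.28, 0.40 and 0.16, none passing (limma, lowest adjusted p = 0.173). The kallikrein genes KLK2 and KLK3 are close copies, so signal could be shared between their probe sets.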
